A study of Mus musculus with 5 samples.

Results

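Veins and lymphatic vessels of the lung carry endothelial cells with marker genes of their own, and 8 of these genes were followed here: Nr2f2, Slc6a2 and Ackr1 for veins, and Prox1, Lyve1, Mmrn1, Reln and Ccl21a for lymphatic vessels. They were found by symbol in the count and TPM tables, where they took 9 of 49315 rows, since Ccl21a has a row on chromosome 4 and another on an unplaced scaffold. Of the 8 genes, 7 had enough counts to be tested, and Ccl21a had none. The libraries were 2 from lung endothelial isolates of TET2KO mice, in which TET2 was removed from endothelial cells, and 3 from WT mice. TET2 is an enzyme that oxidises 5-methylcytosine in DNA. Every mouse, WT included, had received the vasoconstrictor hormone angiotensin II for 28 days, so no untreated animal stands beside them. The labels name neither the Cre driver, the deleted exons, the age or sex of the mice, nor the way endothelial cells were isolated, and they do not say that each library came from its own animal. The p-values therefore measure only how far these libraries differ, and technical variation may be part of that.

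Venous identity depends on Nr2f2, the nuclear receptor COUP-TFII, which holds down the arterial programme in veins. Lymphatic vessels arise from veins when the homeobox factor Prox1 is switched on in venous cells that already express Nr2f2, and Prox1 then maintains lymphatic identity. Mature lymphatic vessels take up tissue fluid, and their capillaries secrete the chemokine CCL21, which draws dendritic cells and T cells carrying the receptor CCR7.

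The libraries held 31239463 and 30035235 counts in TET2KO replicates 1 and 2, and between 27346804 and 35440257 in the 3 WT libraries. Tet2 itself, counted over the whole gene, was at 139 and 162 CPM, counts scaled to library size with TMM factors, in TET2KO, against 141, 174 and 131 CPM in WT, a log2 fold change of 0.02 (SE 0.19, edgeR adjusted p = 0.988). These values overlap. A whole-gene count does not check the genotype where the deleted exons are not named, and the cells that the Tet2 counts came from were not measured. The 26 genes of the endothelial identity list, such as Pecam1 and Cdh5, made up 1.10% and 1.15% of counts in TET2KO, against 0.595%, 0.409% and 0.797% in WT, and markers of lymphocytes and macrophages were counted in every library. The authors' deposited table of fold changes did not set the labelled groups against each other. A DESeq2 fit with WT replicate 3 placed beside the TET2KO libraries came within 0.05 of the deposited log2 fold change for all 18019 genes of that table, while a fit of the labelled genotypes did so for 2516. Whether that table used another grouping or the label of WT replicate 3 is wrong cannot be told from these data. The groups used here are those of the labels, and the fold changes of the 7 tested genes and the medians of the venous and lymphatic lists are also given without WT replicate 3.

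None of the 7 tested genes passed the threshold of an adjusted p under 0.05 in the comparison of TET2KO with WT, which asked whether the loss of TET2 altered these transcripts under angiotensin II. Lyve1 had the smallest p of the 7 and the largest log2 fold change, 0.83. For 6 of the 7 genes the log2 fold change was above 0, and Ackr1 was the exception. The edgeR test, with Benjamini-Hochberg adjustment over all 18727 genes tested, called 0 (0%), while 971 genes (5.19%) were higher and 94 (0.502%) lower in TET2KO at an unadjusted p under 0.05. Of the 7 genes, Lyve1 alone was among them. DESeq2 called 19 of 17317 genes with an adjusted p (0.11%), none of the 8 among them, and limma-voom called 0. The median log2 fold change was 0.44 over the 7 genes and -0.08 over all genes tested, of which 41.6% were above 0.

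**Figure D1:**
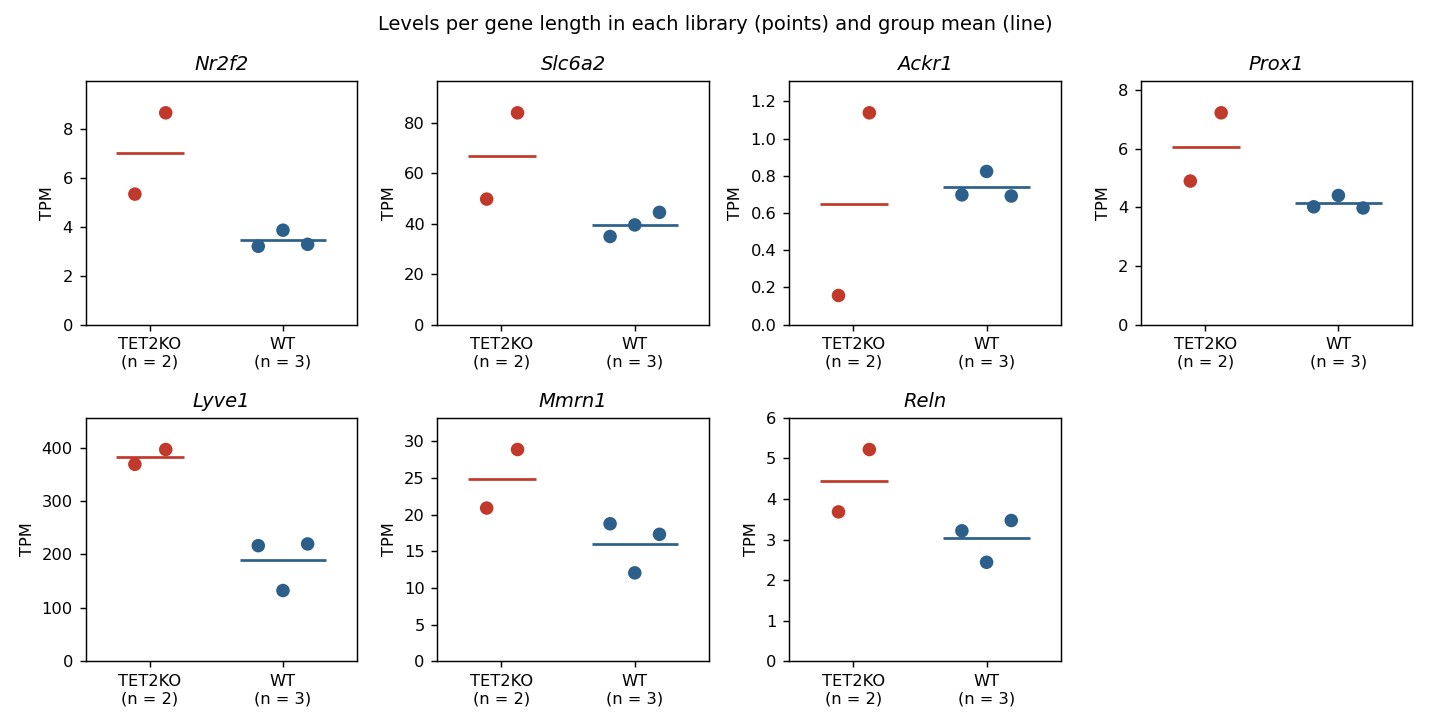
TPM, the deposited level per gene length, of the 7 counted genes (vertical axes, each from 0) in the 2 TET2KO and 3 WT libraries; points are libraries and lines are group means. On this scale the TET2KO points lie above every WT point for 6 of the 7 genes, and Ackr1 stays near or under 1 TPM.

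The levels of the genes stood far apart. TPM, the scale on which genes of different length can be compared, placed Lyve1 first in every library, at 369 and 396 TPM in TET2KO and at 216, 133 and 220 TPM in WT. Slc6a2 was second in every library, and Mmrn1 came next. Slc6a2 was at 49.8 and 84.0 TPM in TET2KO, against 35.0, 39.6 and 44.5 TPM in WT. Mmrn1 was at 20.9 and 28.9 TPM in TET2KO, against 18.8, 12.1 and 17.3 TPM in WT. The next 3 changed places between libraries. Nr2f2 was at 5.35 and 8.68 TPM in TET2KO and at 3.21, 3.87 and 3.29 TPM in WT. Prox1 was at 4.89 and 7.22 TPM in TET2KO and at 4.02, 4.40 and 3.98 TPM in WT, and Reln at 3.68 and 5.22 TPM in TET2KO and at 3.22, 2.44 and 3.47 TPM in WT. Nr2f2 stood above Prox1 in both TET2KO libraries, with a ratio of 1.09 and 1.20, and below it in all WT libraries, with ratios of 0.799, 0.879 and 0.828. That ratio was picked out after its values were seen and was not tested. Ackr1 came last of the counted genes, at 0.157 and 1.14 TPM in TET2KO and at 0.698, 0.824 and 0.692 TPM in WT. In every library Lyve1 exceeded Prox1, the factor that defines lymphatic cells, by a wide margin, with TPM ratios of 75.3 and 54.9 in TET2KO, against 53.9, 30.1 and 55.3 in WT.

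Among the venous genes, Nr2f2 (ENSMUSG00000030551, chromosome 7, 70351944 to 70366735, minus strand, GRCm38) had 418 and 655 counts in TET2KO and 226, 375 and 263 in WT. Scaled by TMM these were 12.6 and 20.5 CPM in TET2KO, against 7.92, 12.7 and 8.36 CPM in WT. TET2KO replicate 1 thus lay level with WT replicate 2, and TET2KO replicate 2 above the rest. The log2 fold change was 0.78 (SE 0.32, 95% interval -0.03 to 1.59, edgeR adjusted p = 0.875), and 0.71 (SE 0.38) without WT replicate 3. In GENCODE M21, 643 of the 8625 exonic bases of Nr2f2 overlap exons of a gene on the opposite strand. Whether reads were counted by strand is not given in the sources used here, and without it the reads of that stretch cannot be told apart. The same holds for 133 of 8390 exonic bases of Prox1 and 246 of 23738 of Reln.

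Slc6a2 (ENSMUSG00000055368, chromosome 8, 92960079 to 93001667, plus strand) encodes the noradrenaline transporter, which clears noradrenaline around sympathetic nerve endings and also marks venous endothelium in mouse lung. It was at 85.7 and 145 CPM in TET2KO and at 62.9, 94.5 and 82.5 CPM in WT. Here too TET2KO replicate 1 fell inside the WT range and TET2KO replicate 2 stood above it. Its log2 fold change was 0.53 (SE 0.29, 95% interval -0.20 to 1.25, edgeR adjusted p = 0.875), and 0.58 without WT replicate 3. Of 12 markers of sympathetic neurons and glia, 5 had enough counts to be tested, and Th and Dbh, enzymes of noradrenaline synthesis, had 0 counts in all libraries. The list together made up 0.00194% and 0.00143% of counts in TET2KO and 0.00168%, 0.000858% and 0.0016% in WT. Of the 5 tested genes, 4 had a log2 fold change above 0 and 1 below. Prph was at 0.604 and 0.564 CPM in TET2KO, against 0.035, 0.237 and 0.032 CPM in WT, with 2.49 (SE 0.80). Uchl1 had 0.48 (SE 0.32). In both genes the TET2KO values exceeded every WT value. The part of nerve fibres in the Slc6a2 values was not tested.

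Ackr1 (ENSMUSG00000037872, chromosome 1, 173331886 to 173333750, minus strand), the atypical chemokine receptor of venules and red cells known as Duffy antigen, was close to the limit of counting. It had 2 and 14 counts in TET2KO and 8, 13 and 9 in WT. The exact Poisson 95% intervals, which cover counting error only, were 0.242 to 7.22 and 7.65 to 23.5 counts in TET2KO replicates 1 and 2, against 6.92 to 22.2 counts in WT replicate 2, the highest of the WT libraries. TET2KO replicate 1 was the lowest library, and TET2KO replicate 2 had 1 count more than the highest WT library. For Ackr1 the log2 fold change was -0.43 (SE 0.80, 95% interval -2.41 to 1.56, edgeR adjusted p = 0.921), -0.50 without WT replicate 3 and 0.38 without TET2KO replicate 1, so no direction can be given.

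Prox1 (ENSMUSG00000010175, chromosome 1, 190118035 to 190170714, minus strand) was at 11.2 and 16.6 CPM in TET2KO and at 9.64, 14.03 and 9.82 CPM in WT. The groups overlapped, with WT replicate 2 above TET2KO replicate 1. The log2 fold change was 0.32 (SE 0.28, 95% interval -0.39 to 1.02, edgeR adjusted p = 0.875), and 0.26 without WT replicate 3.

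Lyve1 (ENSMUSG00000030787, chromosome 7, 110850607 to 110863239, minus strand) encodes a hyaluronan receptor through which immune cells enter lymphatic capillaries, and it is also made by a subset of tissue macrophages. It had 9750 and 10124 counts in TET2KO and 5157, 4347 and 5941 in WT. In CPM these were 295 and 317 in TET2KO, against 181, 147 and 189 in WT. The 2 TET2KO values were the highest of the 5. The log2 fold change was 0.83 (SE 0.18, 95% interval 0.37 to 1.29), a ratio of 1.78. Its unadjusted p was 0.00471 and its edgeR adjusted p 0.778, so it failed the correction over all genes. Without WT replicate 3 it was 0.93 (SE 0.21, edgeR adjusted p = 0.457). The authors' deposited table, with its other arrangement of libraries, lists Lyve1 at a log2 fold change of 0.72 with an adjusted p of 0.201.

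Mmrn1 (ENSMUSG00000054641, chromosome 6, 60924976 to 60989378, plus strand) encodes multimerin 1, a large secreted protein of lymphatic endothelium and of platelets. It was at 33.6 and 46.5 CPM in TET2KO and at 31.5, 26.9 and 29.9 CPM in WT. The groups did not overlap, though TET2KO replicate 1 was nearer to WT replicate 1 than to TET2KO replicate 2. For Mmrn1 the log2 fold change was 0.44 (SE 0.20, 95% interval -0.05 to 0.94, edgeR adjusted p = 0.875), and 0.49 without WT replicate 3. Reln (ENSMUSG00000042453, chromosome 5, 21884454 to 22344702, minus strand), which encodes the secreted glycoprotein reelin, was at 23.9 and 34.0 CPM in TET2KO and at 21.8, 22.0 and 24.2 CPM in WT. TET2KO replicate 1 lay within the WT range. For Reln the log2 fold change was 0.35 (SE 0.21, 95% interval -0.16 to 0.86, edgeR adjusted p = 0.875), and 0.43 without WT replicate 3.

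Ccl21a (ENSMUSG00000094686, chromosome 4, 42772860 to 42773993, minus strand) was listed at 0 in every library, and so was its scaffold row (ENSMUSG00000095320). A count of 0 allows up to 3 counts, or 0.0846 to 0.11 CPM in these libraries. A count of 0 is uncertain for this gene, which has near-identical copies in the mouse genome. The coding sequence of Ccl21a is 402 bases long and is 99.5% identical to that of Ccl21b (ENSMUSG00000095675), from which it differs at 2 bases, T84A and C194T, counted from the A of the start codon, with the Ccl21a base first. Of the windows of 150 bases, the read length, in the Ccl21a transcript, 243 of 721 also occur in the transcript of another gene, and for each of the other 7 genes the number was 0. The copies on scaffolds were not in the transcript set compared. The stretch of coding bases 52 to 114 is shown for both genes because it holds the first of the differences, in capitals:
Ccl21a: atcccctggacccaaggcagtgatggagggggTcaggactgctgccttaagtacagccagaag
Ccl21b: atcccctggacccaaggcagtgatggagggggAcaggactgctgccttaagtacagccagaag
Of the rows named Ccl21b, 1 on a scaffold (ENSMUSG00000096271) had 5 and 5 counts in TET2KO and 0, 0 and 2 in WT, and the others, with Ccl21c, had 0. Ccl19, the other ligand of CCR7, had a single count in TET2KO replicate 2. Ccr7 was counted at 518 and 441 CPM in TET2KO, against 467, 262 and 915 CPM in WT, and its groups overlapped.

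The share of the 7 genes with separated groups depended on the scale. With TMM-scaled CPM, Lyve1 and Mmrn1, 2 of the 7, had both TET2KO values over every WT value, as had 12.4% of all genes tested, and 0 of the 7 had them under every WT value, as had 12.4%. With TPM 6 of the 7 had them over every WT value, against 20.8% of all genes, and 0 of the 7 under every WT value, against 2.3%. The scales differ most for WT replicate 2, which had the lowest TMM factor, 0.835, against 1.02 to 1.06 in the other 4 libraries. For 6 of the 7 genes TET2KO replicate 2 was the highest of the 5 libraries, as it was for 16% of all genes tested. Without TET2KO replicate 2 the log2 fold change was 0.78 for Lyve1 and 0.39 for Nr2f2, and it was 0.19 for Mmrn1, 0.10 for Slc6a2, 0.076 for Reln and 0.0098 for Prox1. Lyve1 therefore had a fold change of like size from either TET2KO library, with 0.88 without TET2KO replicate 1, while for the other 5 of these genes the value was lower without TET2KO replicate 2 than without TET2KO replicate 1. For Ackr1 it was -2.40 without TET2KO replicate 2.

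**Figure D2:**
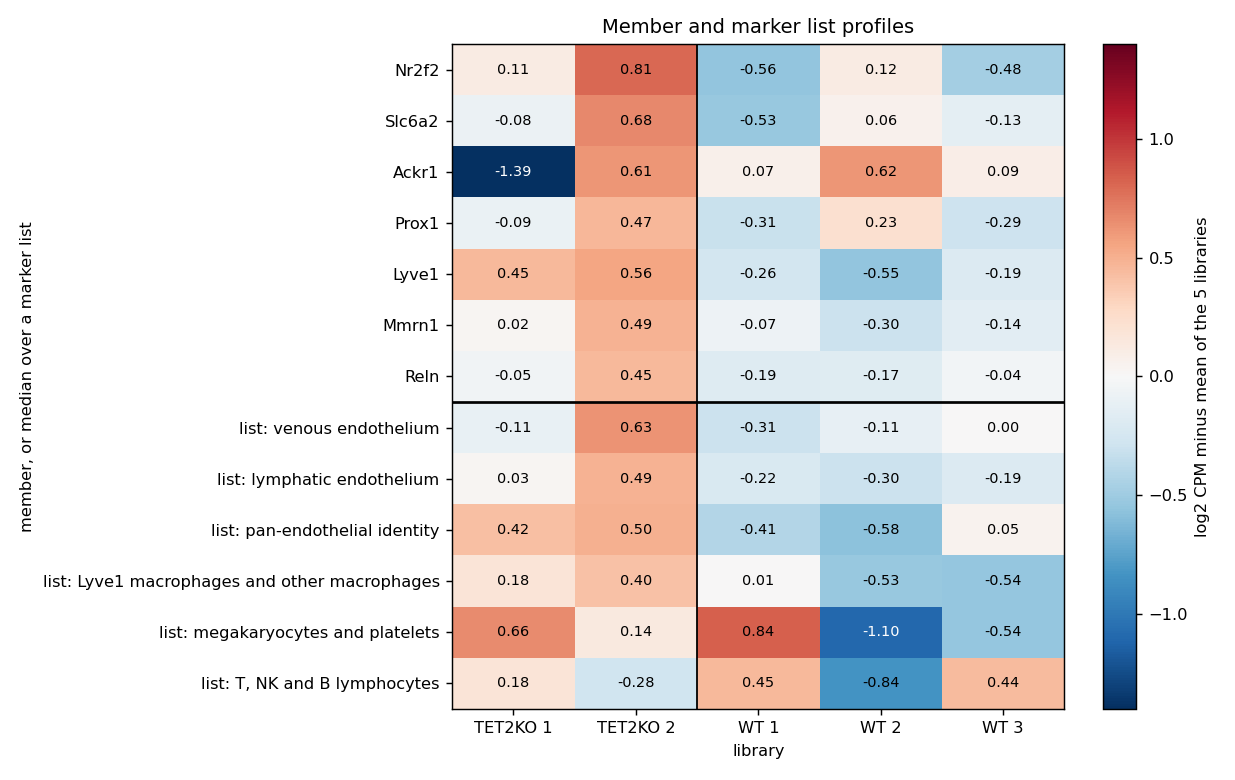
log2 CPM minus the mean of the 5 libraries (colour and printed value) for the 7 tested genes and, below the line, the median over 6 marker lists; columns are libraries. TET2KO replicate 2 is the highest column for 6 of the 7 genes, and of the 7 genes TET2KO replicate 1 is far above 0 for Lyve1 alone, at 0.45.

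Because the endothelial share of counts differed between the groups, each gene was also set against the summed counts of the 26 endothelial identity genes. All 26 had log2 fold changes above 0, with a median of 0.77, and in all 26 the lowest TET2KO value exceeded the highest WT value, as in 12.4% of all genes tested. That list was chosen with earlier results of these data known. The separation of its genes, and values set against them, are therefore not independent of those results. Per 1000 identity counts, Lyve1 stood at 28.4 and 29.4 counts in TET2KO and at 31.7, 30.0 and 24.0 counts in WT. Both TET2KO values lay inside the WT range. Prox1 stood at 1.08 and 1.54 in TET2KO, against 1.69, 2.86 and 1.25 in WT, and Mmrn1 at 3.24 and 4.31 in TET2KO, against 5.52, 5.49 and 3.81 in WT. Reln stood at 2.31 and 3.15 in TET2KO, against 3.83, 4.49 and 3.09 in WT. In these 3 lymphatic genes TET2KO replicate 1 was the lowest library and WT replicate 1 or 2 the highest, and the groups overlapped through WT replicate 3. Nr2f2 stood at 1.22 and 1.90 in TET2KO, against 1.39, 2.59 and 1.06 in WT, and Slc6a2 at 8.28 and 13.4 in TET2KO, against 11.03, 19.3 and 10.5 in WT. On this scale the groups overlapped for all 7 tested genes.

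**Figure D3:**
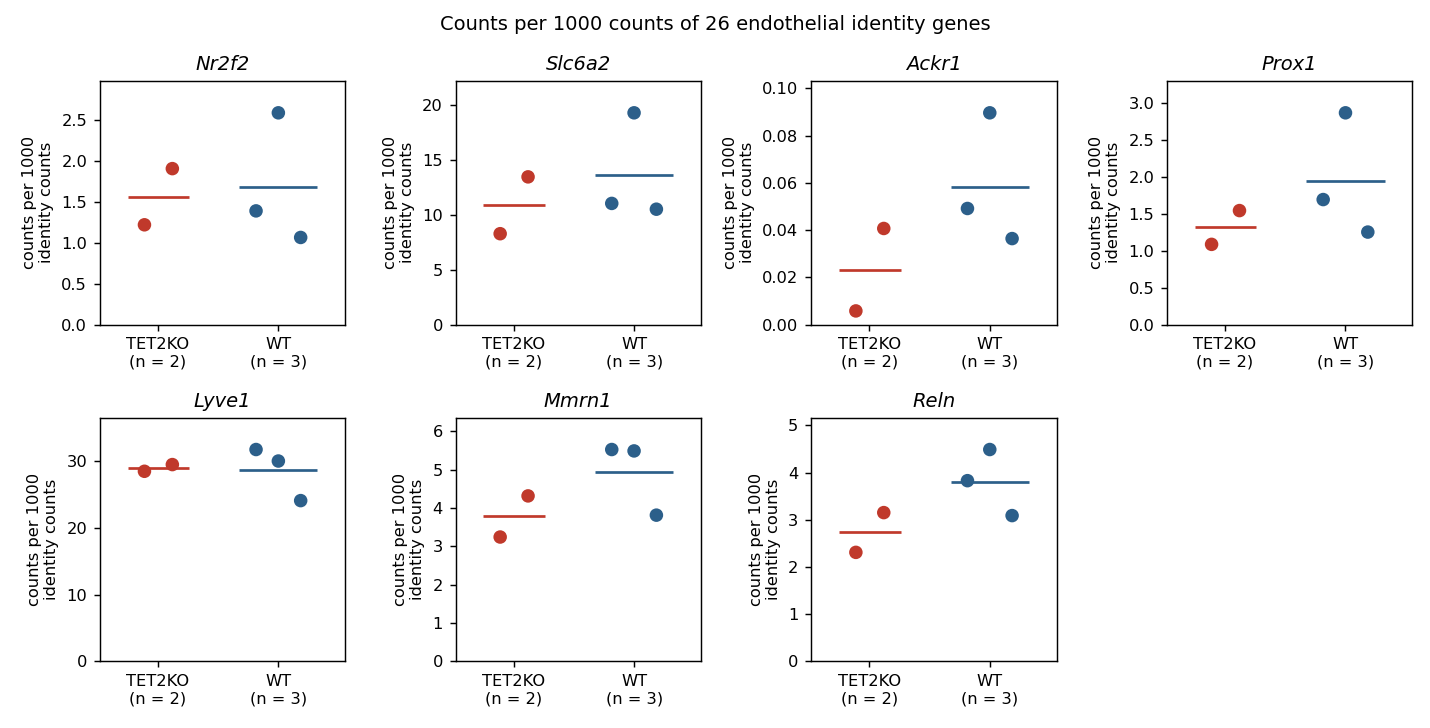
Counts of each gene per 1000 counts of 26 endothelial identity genes (vertical axes, each from 0) in the 2 TET2KO and 3 WT libraries; points are libraries and lines are group means. The groups overlap in every panel, and Lyve1 averages 28.9 in TET2KO and 28.6 in WT.

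When edgeR was fitted with libraries scaled on the identity genes, the log2 fold change was 0.018 for Lyve1 (SE 0.29, 95% interval -0.66 to 0.70) and -0.10 for Nr2f2. It was -0.32 for Slc6a2, -0.39 for Mmrn1, -0.48 for Reln and -0.56 for Prox1, with edgeR adjusted p values between 0.254 and 0.965 over the 7 genes. That scaling moved the median of all genes tested to -0.90, against -0.08 with TMM. The fold changes of the 7 genes moved down by about as much as that median. On this scale a value below 0 places a gene's fold change under that of the summed identity counts. With TMM the identity genes had a median of 0.77, against 0.53 for Slc6a2, 0.44 for Mmrn1, 0.35 for Reln and 0.32 for Prox1. Nr2f2 at 0.78 and Lyve1 at 0.83 lay near it. All but Ackr1 remained above the median of all genes on both scales. In bulk RNA, fewer cells of a type and less RNA per cell cannot be told apart.

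**Figure D4:**
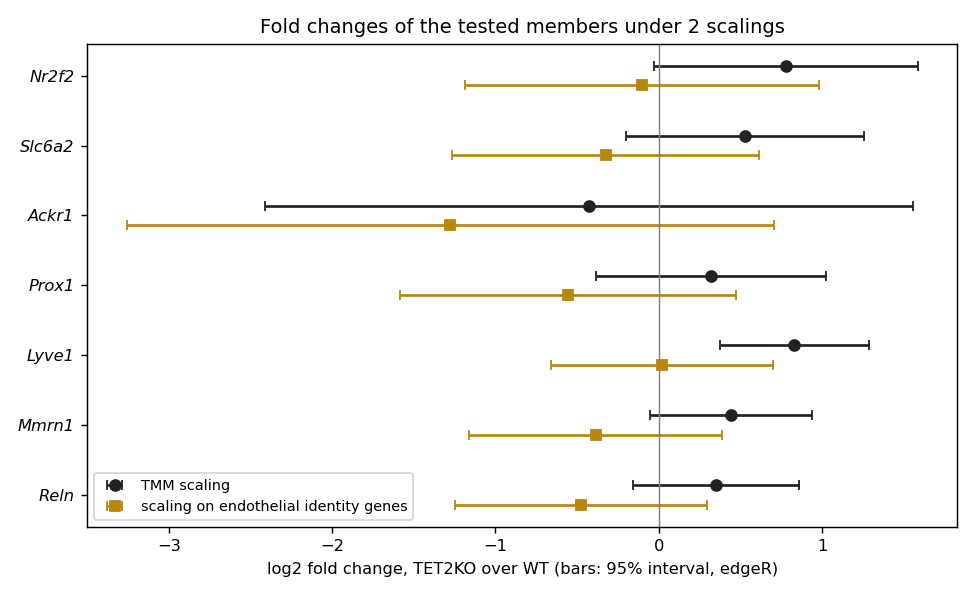
log2 fold change, TET2KO over WT (horizontal axis), with its 95% interval from edgeR for the 7 tested genes; circles use TMM scaling and squares scaling on 26 endothelial identity genes. With TMM the Lyve1 interval of 0.37 to 1.29 is the 1 that lies above 0, and with identity scaling every interval spans 0.

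Wider lists of venous and lymphatic genes had medians near those of the 7. The venous list held 13 further genes, all tested: 0 were called in either direction, 11 had a log2 fold change above 0 and 2 below, and the median was 0.42. Prss23, a serine protease of venous endothelium, was at 37.5 and 53.8 CPM in TET2KO, with a log2 fold change of 0.70 (SE 0.20), and Ephb4, the venous receptor of ephrin-B2, at 155 and 134 CPM with 0.73 (SE 0.27). Their highest WT values were 28.9 and 115 CPM. These were the 2 of the 13 with both TET2KO values over every WT value, a share near the 12.4% of all genes tested. Vwf, the von Willebrand factor stored by venous endothelium and platelets, was at 556 and 942 CPM in TET2KO and 485, 696 and 599 CPM in WT, with 0.34 (SE 0.30). The adhesion receptors Selp and Sele had 0.42 (SE 0.47) and 0.55 (SE 0.73). Bst1 and Nrp2 had -1.53 (SE 1.12) and -1.01 (SE 0.92). Bst1 was at 470 CPM and Nrp2 at 382 CPM in WT replicate 2, where Chil3 and Marco of alveolar macrophages were also highest, at 15529 and 484 CPM. The part of those cells in the Bst1 and Nrp2 values was not tested. The whole venous list had a median of 0.47, which was 0.051 when TET2KO replicate 2 was left out, 0.27 when WT replicate 1 was and 0.60 when WT replicate 3 was.

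The lymphatic list held 15 further genes, all tested: 0 were called, 13 were above 0 and 2 below, and the median was 0.46. In 6 of the 15 the groups did not overlap, with TET2KO higher, as in 12.4% of all genes tested. Itga9, the integrin of lymphatic valves, was at 15.7 and 28.8 CPM in TET2KO, against 11.6, 12.1 and 11.9 CPM in WT, with a log2 fold change of 0.90 (SE 0.28). Flt4, the VEGF-C receptor VEGFR-3, was at 116 and 102 CPM in TET2KO, against 79.6, 52.2 and 85.03 CPM in WT, with 0.59 (SE 0.25), and Gata2, a transcription factor of lymphatic valves that other endothelium and blood cells also express, had 0.81 (SE 0.24). Foxc2, another valve regulator, was at 1.03 and 1.47 CPM in TET2KO, against 0.876, 0.642 and 1.21 CPM in WT, with 0.46 (SE 0.41). Pdpn, the glycoprotein podoplanin of lymphatic and alveolar type 1 cells, and Ccbe1, a cofactor of VEGF-C maturation, had -1.49 (SE 1.19) and -1.41 (SE 1.12), and both were highest in WT replicate 2, at 70.6 and 17.1 CPM. The whole lymphatic list had a median of 0.44, which was 0.17 when TET2KO replicate 2 was left out, 0.66 when TET2KO replicate 1 was and 0.49 when WT replicate 3 was. In the list of lymphatic growth signals, 12 genes were tested, 0 were called, 7 were above 0 and 5 below. Its ligands Vegfc and Vegfd had 0.56 (SE 0.32) and 0.52 (SE 0.30). The median of that list was 0.19.

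Several of the 8 genes are also made outside vessels, and markers of those cells were measured in the same libraries. Of 15 tested macrophage genes, 9 were above 0 and 6 below, 0 were called, and the median was 0.78. The list held 0.246% and 0.510% of counts in TET2KO, against 0.475%, 1.59% and 0.175% in WT. Most of that share was Chil3 of alveolar macrophages, at 1209 and 3054 CPM in TET2KO, against 3120, 15529 and 933 CPM in WT. In 8 of the 15 both TET2KO values exceeded every WT value, as in 12.4% of all genes tested. Ednrb, among the 8, also stands on the list of the lung's gas exchange capillaries. Cd163, a haemoglobin scavenger receptor of macrophages that carry LYVE1, was one of the 8, at 23.9 and 39.7 CPM in TET2KO and at 12.6, 9.46 and 17.2 CPM in WT. Folr2, a folate receptor, was at 2.33 and 4.89 CPM in TET2KO and at 1.47, 0.980 and 2.16 CPM in WT, and Timd4, a phosphatidylserine receptor, at 4.68 and 3.41 CPM in TET2KO and at 2.87, 1.42 and 2.67 CPM in WT. In these 3 genes the groups did not overlap. Mrc1, the mannose receptor, which the same macrophages make, was at 263 and 484 CPM in TET2KO and at 455, 1604 and 204 CPM in WT, with overlapping groups. Mertk, Adgre1 and Csf1r, also on the macrophage list, had log2 fold changes of -0.85 (SE 0.83), -0.51 (SE 0.52) and -0.13 (SE 0.37). Their groups overlapped. The part of macrophages in the Lyve1 difference was not tested. Of 14 platelet genes, which bear on Mmrn1, 13 were above 0, 0 were called and 0 were at 0 counts. The platelet list held 0.0775% and 0.117% of counts in TET2KO, against 0.0689%, 0.0655% and 0.0782% in WT. Most of that share was Vwf, which venous endothelium also makes. The list's median log2 CPM, centred on the mean of the 5 libraries, was 0.66 and 0.14 in TET2KO, against 0.84, -1.10 and -0.54 in WT. TET2KO replicate 2 was the highest library for 4 of the 14 genes, as it was for 16% of all genes tested. The part of platelets in the Mmrn1 values was not tested. Of 12 fibroblast genes, which bear on Nr2f2, 10 were above 0 with 0 called, and they held 0.0154% and 0.0145% of counts in TET2KO, against 0.0155%, 0.00588% and 0.00687% in WT. Their part in the Nr2f2 values was not tested either.

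The other lists had 0 genes called in either direction. Of the other vessel lists, arterial genes had 17 of 18 above 0 and a median of 0.72, general capillary genes 11 of 13 with 0.72, and aerocyte genes, those of the lung's gas exchange capillaries, 13 of 13 with 0.76. Pericyte and smooth muscle genes had 9 of 10 above 0 with a median of 0.37. Mesothelial genes had 9 of 10 with 1.64, and alveolar epithelial genes 9 of 12 with 0.78. Blood cell lists ran lower: lymphocyte genes had 5 of 14 above 0 with a median of -0.22, neutrophil and monocyte genes 5 of 11 with -0.02, and erythroid genes 2 of 7 with -0.47. The neuronal list had 4 of 5 above 0 with 0.27, and lymph node stroma 5 of 7 with 0.19.

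Across the 5 libraries, the genes whose centred log2 CPM lay closest to each member were found by the root mean square difference, given here as a description. For Lyve1 they were Sgce and Rtl8a, at 0.032 and 0.040, and 62 genes lay within 0.1. For Mmrn1 they were Hykk, at 0.062, and Stab2, a scavenger receptor that also binds hyaluronan, at 0.064. For Slc6a2 they were Fam198b and Fam84b, at 0.032 and 0.048. For Prox1 they were Tlr3 and Cxcl16, at 0.053 and 0.058, for Reln Crmp1 and Mustn1, at 0.045 and 0.057, and for Nr2f2 Scgb3a1 and Fads3, at 0.091 and 0.092. Ackr1 had no gene within 0.1.

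Windows upstream of RefSeq starts of Prox1, Reln and Mmrn1 are shown, as the lymphatic genes with such a window free of annotated exons. Lyve1 and Slc6a2 had no window in the promoter set used, which held 6 of the 8 genes. TET enzymes act on methylated cytosines, most of which lie in the base pair step CG. Each sequence is the 250 bases upstream of a RefSeq start on the gene's own strand, 5′ to 3′ (GRCm38.p6), with every CG in capitals. The windows are chr1:190170828-190171077 (minus strand) for Prox1, chr5:22344706-22344955 (minus strand) for Reln and chr6:60944067-60944316 (plus strand) for Mmrn1, and no annotated exon overlaps them. A further RefSeq start of Prox1 has a window with 118 exonic bases and 11 CG, a number reached in 35.6% of promoter windows, and is not shown. The Mmrn1 window lies inside the GENCODE gene, downstream of its annotated start at 60924976, and whether it acts as a promoter was not tested.
Prox1: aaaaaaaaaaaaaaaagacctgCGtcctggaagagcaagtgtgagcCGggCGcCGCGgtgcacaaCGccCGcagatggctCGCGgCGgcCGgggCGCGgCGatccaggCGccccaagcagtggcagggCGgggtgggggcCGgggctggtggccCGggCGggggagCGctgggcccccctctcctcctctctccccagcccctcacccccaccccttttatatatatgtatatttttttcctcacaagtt
Reln: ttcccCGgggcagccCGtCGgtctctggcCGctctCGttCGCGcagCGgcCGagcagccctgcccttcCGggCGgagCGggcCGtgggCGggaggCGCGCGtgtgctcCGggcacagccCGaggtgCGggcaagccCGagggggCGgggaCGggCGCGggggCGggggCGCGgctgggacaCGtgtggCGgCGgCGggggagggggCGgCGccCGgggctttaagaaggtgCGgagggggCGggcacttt
Mmrn1: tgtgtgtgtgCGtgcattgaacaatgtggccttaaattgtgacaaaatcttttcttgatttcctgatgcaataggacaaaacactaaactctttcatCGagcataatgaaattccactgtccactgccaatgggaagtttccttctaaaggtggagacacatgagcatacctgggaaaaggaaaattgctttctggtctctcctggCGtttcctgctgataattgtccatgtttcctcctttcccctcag
CG, which reads the same on both strands, occurred 20 times in the Prox1 window shown, 37 times in that of Reln and 3 times in that of Mmrn1. At least as many were found in 17.9%, 2.2% and 71% of the 32851 RefSeq promoter windows, whose median was 6 and of which 92.1% held at least 1. The log2 fold changes of the 3 genes, 0.32, 0.35 and 0.44, lay within 1 standard error of each other. DNA methylation was not measured in these samples.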

How the data were processed

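Trimmomatic 0.36, STAR 2.5.2b, Subread 1.5.2 (featureCounts), DESeq2 and GRCm38 are named in the submitters' processing notes. The files deposited were a table of raw counts, a table of TPM and a comparison table. That last one, per the file headers, gives the authors' log2 fold change, p-value and adjusted p-value of each gene. That table also holds a deposited signal, counts divided by a size factor. Of 49315 rows, 174 carried no symbol.

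The count test was edgeR 4.0.16 (quasi-likelihood, TMM, filterByExpr, genotype as the only term) in R 4.3.3, with Benjamini-Hochberg adjustment over 18727 genes and a threshold of 0.05. Fold changes are TET2KO over WT, and each SE is the log2 fold change over the square root of F. Centred profiles used log2 CPM with a prior count of 2. Alternatives were DESeq2 1.42.0, limma-voom (limma 3.58.1), RLE, upper quartile and no factors, scaling on the identity genes, 2 other filters, each library left out, a replicate block, and limma fits to log2(TPM + 1), with and without a filter, and log2(TPM + 0.1). A run on simulated counts checked that edgeR, DESeq2 and limma-voom returned median fold changes near those put in. The share of such changes that passed the threshold is not reported here. The members and the 18 gene lists were chosen with earlier results of these data known. The genes named were the members, Tet2, rows of Ccl21 and Ccl19, the venous, lymphatic and growth lists, the 3 genes of smallest p of other lists, and the 2 nearest genes to each member. Those printed are a selection. Cdh5, Pecam1, Folr2, Timd4, Mrc1, Mertk, Adgre1, Csf1r, Ednrb, Chil3, Marco and the neuronal genes at 0 lie outside that rule. They were chosen after their values were seen.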

Additional observations from a re-analysis of the deposited data

How the results depend on the processing

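Of 117 values of the 7 genes over 17 alternatives, 98 were above 0, 0 passed the threshold and 6 had the other sign. Scaling on the identity genes turned the sign for Nr2f2 (-0.10), Slc6a2 (-0.32), Prox1 (-0.56), Mmrn1 (-0.39), Reln (-0.48) and Tet2 (-0.845). That scaling also moved the median of all genes tested to -0.90. Ackr1 was 0.38 without TET2KO replicate 1. Tet2, near 0, had the other sign at -0.015, -0.031 and -0.094 when WT replicate 1, WT replicate 3 or TET2KO replicate 2 was left out, and at -0.057 with the replicate block. Leaving out 1 library gave 0.39 to 1.09 for Nr2f2, 0.10 to 0.85 for Slc6a2, -2.40 to 0.38 for Ackr1, 0.75 to 0.93 for Lyve1, 0.0098 to 0.57 for Prox1, 0.19 to 0.66 for Mmrn1, 0.076 to 0.58 for Reln and -0.094 to 0.18 for Tet2. DESeq2 called 19 genes and every other alternative 0. Ackr1 was not tested without WT replicate 2 or at 1 CPM in 2 libraries. With 1 TET2KO library left, that library is assumed to vary like the WT libraries.

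Replicate numbers 1 and 2 occur in both groups, but the labels tie them to nothing shared. Deviations from the group means correlated at 0.22 and 0.493 between same-numbered libraries, and at 0.455 between WT replicate 3 and TET2KO replicate 1. The deviations of the 2 TET2KO libraries mirror each other, so these values can neither show nor exclude pairing. In the fit with the replicate block, number 3 occurs in WT alone, so WT replicate 3 adds nothing to the genotype term. The replicate block called 0 genes, with 2914 at an unadjusted p under 0.05 against 1065 without it. With it the log2 fold change was 0.68 for Nr2f2, 0.53 for Slc6a2, -0.72 for Ackr1, 0.91 for Lyve1, 0.23 for Prox1, 0.44 for Mmrn1 and 0.38 for Reln, and it changed no call. Low counts limit Ackr1, and near-identical copies leave the counts of 0 in the Ccl21 rows uncertain.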
